A study of Mus musculus with 29 samples.

Results

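Hedgehog and bone morphogenetic protein (BMP) signaling genes were followed in mouse bladder urothelium and in bladder tumors. The 10 genes were Shh, Ptch1, Gli1, Gli2 and Hhip of the Hedgehog pathway and Bmp2, Bmp4, Bmp7, Id1 and Id2 of the BMP pathway, found by their symbols among the 35199 genes of each expression table. Basal cells of the urothelium secrete Shh, and the neighboring stroma responds through the receptor Ptch1 and the Gli transcription factors and returns differentiation signals, BMPs among them. Hhip binds and sequesters Hedgehog ligands, and Ptch1, Gli1 and Hhip are themselves induced by the pathway. BMP ligands act through receptor kinases and Smad proteins, and Id1 and Id2, which hold back basic helix-loop-helix transcription factors, are among the genes BMPs induce.

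The study expressed VP16;Pparg, a constantly active form of the nuclear receptor Pparg, in basal urothelial cells of mice and profiled RNA in bulk. Its design asked how active Pparg alters basal cells within days, and how it alters the tumors that follow a carcinogen. Expression was driven by the CAG promoter at the Rosa26 locus and started by tamoxifen through a Cre recombinase under a Krt5 promoter, so that cells in which Krt5 is off, and basal cells that escape recombination, do not switch the protein on directly. The labels give no age, strain or animal number, so that tests measure the spread between libraries and not known animals.

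The first groups were 4 control and 5 mutant libraries collected 4 days after tamoxifen, untreated with carcinogen and labelled homeostasis. The controls are labelled wild type, while the publication describes K5;mTmG mice for the sorted cells. The mutants are labelled K5VP16;Pparg+/-, and the publication states that both groups were sorted for green fluorescent protein, which marks cells in which Cre has acted. The tumor groups received 0.05% BBN, a bladder carcinogen, in drinking water. The publication describes 1 month of BBN before tamoxifen and tumors examined 4 months after it, and the labels give 5 months of BBN. They were 3 basal tumors of mice labelled wild type and, from mice labelled K5VP16;Pparg+/-, 3 luminal tumors, 3 luminal domains at the top of tumors of mixed histology and 3 basal-like domains at the bottom of such tumors. Tumor cells were captured by laser from stained frozen sections. The labels do not tie captured regions to mice or lesions. Where regions share a mouse, the p-values below may be too small.

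Values are counts that the authors normalized within each table, so that a library has slightly different values in different tables. The summed values per library ran from 36520193 to 41435665 in the 4-day table and from 41697178 to 53904714 in the tumor tables. They are sums of normalized values. The publication states a targeted sequencing depth, and the reads obtained from each library were not analysed here. Fold changes were taken on log2(normalized count + 1), which understates the change of genes with low values, and tested with limma. Genes entered the test when their value reached 10 in enough libraries to fill the smaller group. Adjusted p is by the Benjamini-Hochberg method, with a threshold of 0.05.

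The labelled tissue had the markers of urothelium. Krt5, a basal cell keratin, lay between 62918 and 109572 in the 9 libraries at 4 days, and Trp63, the transcription factor of basal cells, between 12606 and 36766. Upk1a, a uroplakin of superficial cells, was also high there, between 66833 and 128424. Fabp4, a direct Pparg target, measured 327, 449, 207 and 467 in the controls and 30598, 7617, 4969, 5904 and 6934 in the mutants, a log2 fold change of 4.64 (SE 0.49, limma adjusted p = 0.00171). All 5 mutants lay above all 4 controls. Pparg itself had a log2 fold change of -0.36 at 4 days (SE 0.12, limma adjusted p = 0.126), with all 5 mutants below all 4 controls. In the tumors Pparg measured 126, 13 and 102 in the basal tumors and 7216, 8632 and 3579 in the luminal tumors, without overlap (log2 fold change 6.74, SE 0.80, limma adjusted p = 0.0135). Fabp4 overlapped there, with 1082, 75.5 and 48303 in the basal and 31727, 310097 and 197271 in the luminal tumors (log2 fold change 6.30, SE 2.17, limma adjusted p = 0.172).

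Shh, the Hedgehog ligand, was abundant in the sorted cells at 4 days and did not separate mutants from controls. The controls CT063, CT065, CT066 and CT067 had 6399, 7115, 6205 and 6261 normalized counts of Shh, and the mutants CT070, CT071, CT074, CT076 and CT078 had 4874, 5729, 7061, 6825 and 8128 in the mutants. The mutants held both the lowest values and the highest one. The log2 fold change was -0.01 (SE 0.14, limma adjusted p = 0.967). Ptch1, the receptor that holds the pathway off until Shh binds, ran from 692 to 796 in the controls and from 399 to 929 in the mutants, where CT070 lay far below the rest.

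The Gli transcription factors were low in all 9 libraries. Gli1, an activator and a target of the pathway, measured 3.94, 14.7, 18.4 and 44.2 in the controls and 36.3, 1.92, 86, 40 and 3.95 in the mutants. Gli2, the main activator, measured 6.35, 11.2, 32.3 and 39.6 in the controls and 82.1, 7.75, 121, 262 and 13.8 in the mutants. For both genes the highest values were in mutants, and the groups overlapped. The log2 fold change of Gli2 was 1.45 (SE 1.01, limma adjusted p = 0.453). Hhip, the decoy receptor, was listed at 0 in 5 of 9 libraries and at most at 3.88, so that it was below the limit for testing here and in every tumor table.

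**Figure D1:**
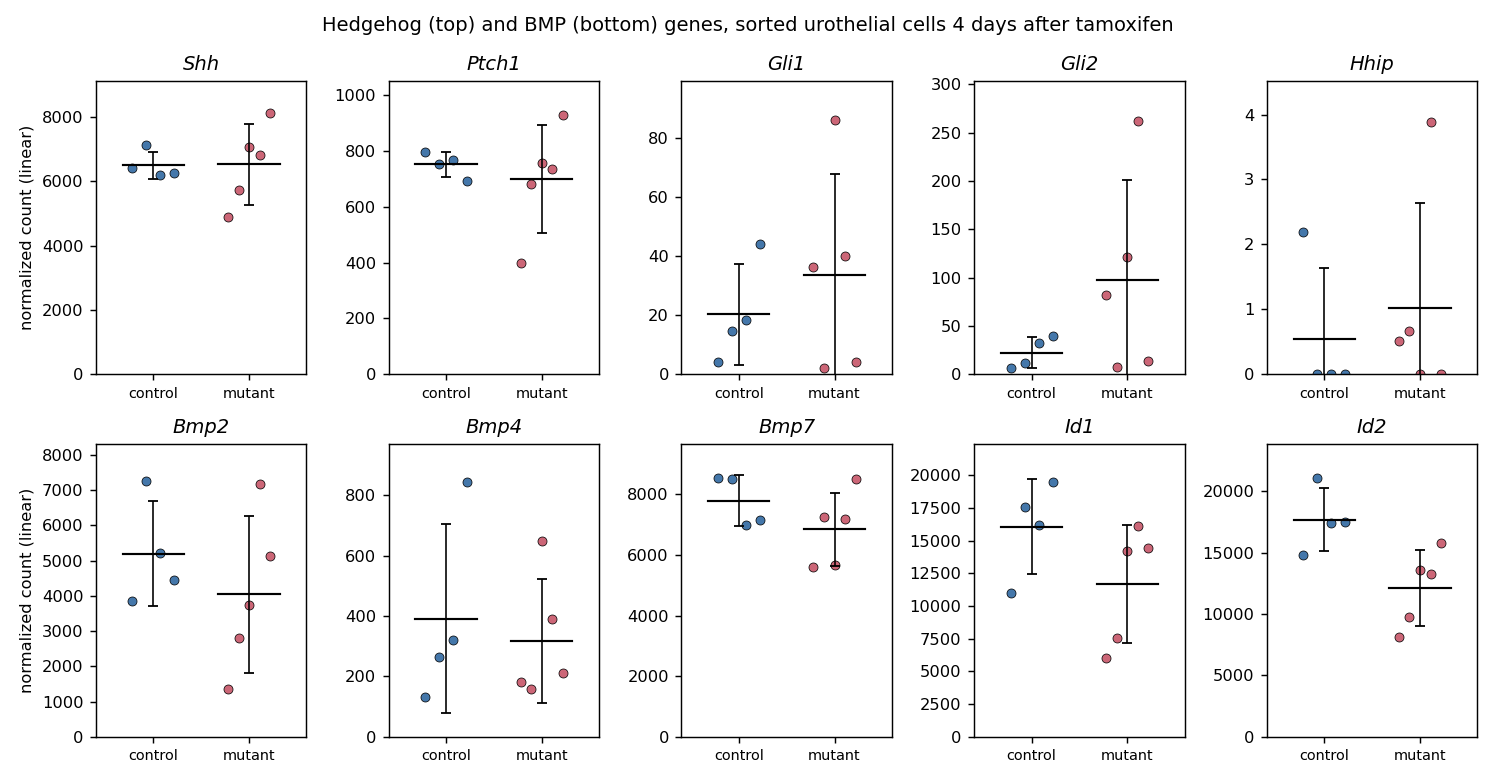
Normalized counts (linear axis from 0) of the 5 Hedgehog and 5 BMP genes in 4 control and 5 mutant libraries at 4 days, 1 point per library in order of library number, with the mean (line) and SD (bar). In each of the 9 genes that were tested the groups overlap.

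All 5 BMP genes had negative log2 fold changes at 4 days, although that of Bmp4 turned positive with sex as a covariate, and none passed the limma test. Bmp2, a ligand, measured 3843, 7266, 5221 and 4447 in the controls and 1366, 2801, 3750.0, 7186 and 5118 in the mutants, with CT070 lowest and CT065 highest. The ligand Bmp4 ran from 132 to 844 over the 9 libraries and the ligand Bmp7 from 5593 to 8536, each with overlapping groups. Among the BMP targets, Id1 measured 11003, 17538, 16163 and 19505 in the controls and 6046, 7586, 14174, 16108 and 14403 in the mutants. Id2 measured 14837, 21066, 17397 and 17486 in the controls and 8104, 9781, 13564, 13259 and 15784 in the mutants. Only CT078 among the mutants exceeded the lowest control in Id2, and CT070 and CT071 were lowest in both genes. The log2 fold change of Id2 was -0.58 (SE 0.19, limma adjusted p = 0.131), and that of Id1 was -0.53 (SE 0.31, limma adjusted p = 0.360).

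By limma, 0 of the 9 members tested at 4 days passed, where 2.85% of all 16413 genes did. At an unadjusted p under 0.05 there was 1 member, Id2, and 3418 genes in all. The median log2 fold change of the 9 members was -0.19, and that of all genes tested 0.0045. Groups did not overlap in 9.18% of all genes tested and in none of these 9.

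The low values of Id1 and Id2 in particular libraries led to a look at related genes, chosen after these values were seen. In Id1, Id2, Id3, Id4 (a relative), the inhibitory Smads Smad6 and Smad7, and Bmp2, the 2 lowest of the 9 libraries were the mutants CT070 and CT071 in 7 of 7 genes, and in 5 of 7 the control CT063 came next. Id1, Id2 and Bmp2, counted among the 7, had prompted the look. The same 2 libraries were the lowest in 10.6% of all 16413 genes tested and in 5 of the 9 members tested, Shh and Ptch1 among them, so that the order is not particular to BMP genes. Id3, a BMP target, measured 6042, 13950.0, 15908 and 15348 in the controls and 4735, 5359, 13288, 15558 and 12903 in the mutants. Id4, of the same family, measured 639, 1495, 1999 and 2366 in the controls and 399, 473, 1189, 1044 and 946 in the mutants. Smad7 measured 858, 1851, 1803 and 1910.0 in the controls and 643, 806, 1215, 1989.8 and 1848 in the mutants. In these 3 genes CT063, CT070 and CT071 were the lowest libraries, with Id4 higher in the remaining controls than in the remaining mutants. CT070 and CT071 also had the highest summed superficial markers, 703398 and 519799. The part of superficial cells in the Id values was not tested.

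**Figure D2:**
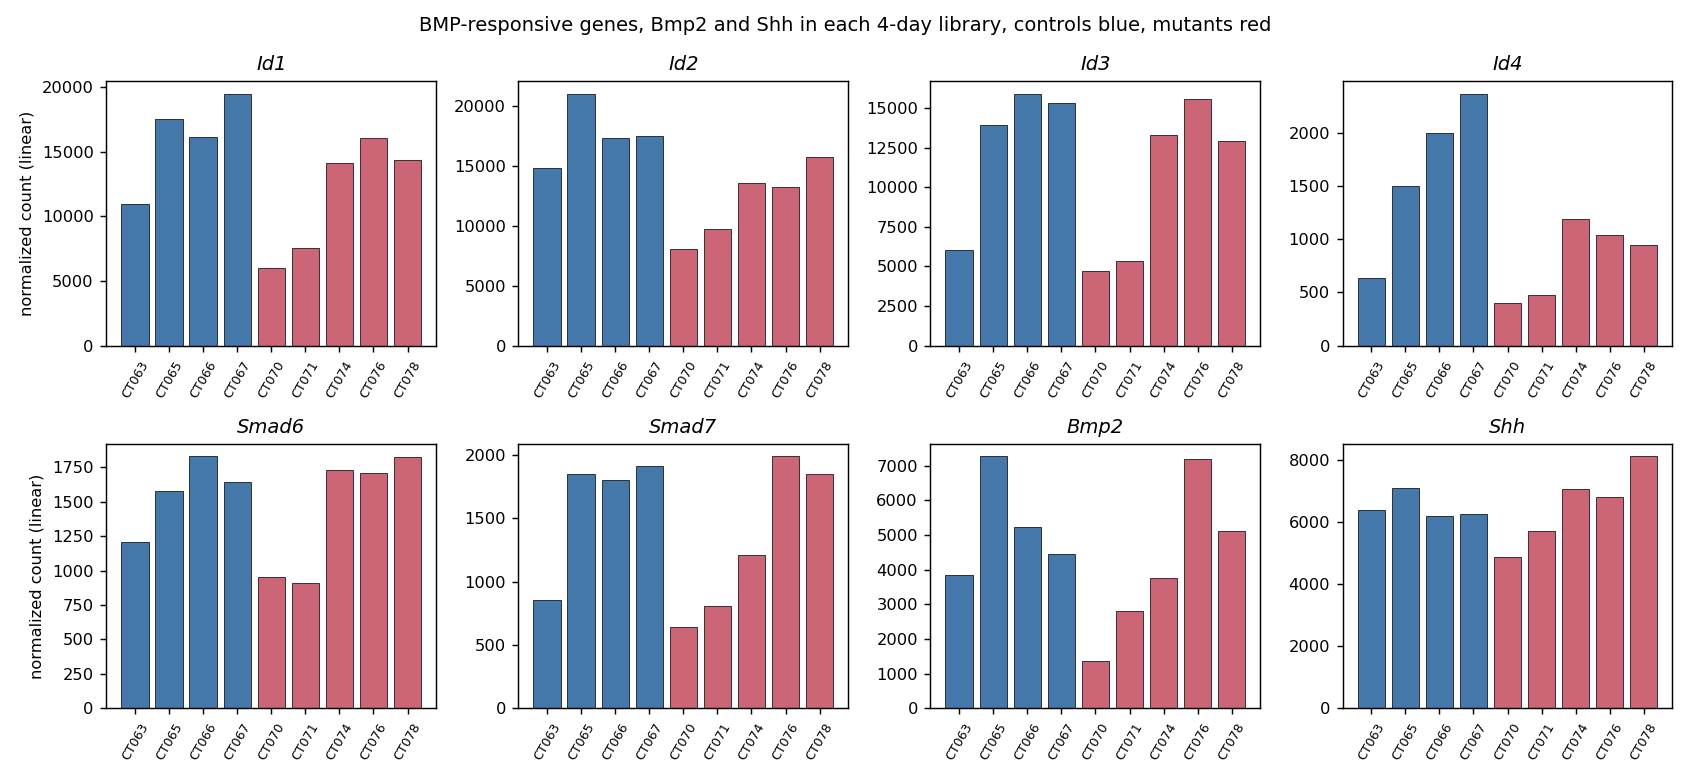
Normalized counts (linear axis from 0) of 7 BMP-related genes and of Shh, 1 bar per library, controls in blue and mutants in red. In all 7 BMP-related genes the bars of CT070 and CT071 are the lowest, and in 5 of them CT063 follows, while CT070 and CT071 are the lowest for Shh too.

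Promoters are shown for Id2 and Id3, which were low in the same mutant libraries. RefSeq promoters (250 bases before to 50 after a start site, build GRCm38.p6) were available for 5 of the 10 members, Bmp4, Gli2, Hhip, Id2 and Ptch1. The window of Ptch1, chr13:63565686-63565985, lies inside the annotated gene at 63508328-63573460 and not at its outer start. That of Gli2, chr1:119053570-119053869, likewise lies inside the gene at 118834061-119054405. They were searched on both strands for the Smad-binding GC-rich motif GGCGCC, the palindromic Smad box GTCTAGAC and the Gli motif GACCACCCA. The promoter of Id2 lies on the minus strand at chr12:25096043-25096342, and that of Id3 on the plus strand at chr4:136143572-136143871, with GGCGCC in capitals.
Id2: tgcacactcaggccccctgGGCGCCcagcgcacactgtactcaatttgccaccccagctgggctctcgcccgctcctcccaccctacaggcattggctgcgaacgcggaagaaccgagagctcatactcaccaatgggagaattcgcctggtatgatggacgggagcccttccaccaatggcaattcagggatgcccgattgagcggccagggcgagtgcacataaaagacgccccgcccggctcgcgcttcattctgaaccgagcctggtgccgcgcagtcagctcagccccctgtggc
Id3: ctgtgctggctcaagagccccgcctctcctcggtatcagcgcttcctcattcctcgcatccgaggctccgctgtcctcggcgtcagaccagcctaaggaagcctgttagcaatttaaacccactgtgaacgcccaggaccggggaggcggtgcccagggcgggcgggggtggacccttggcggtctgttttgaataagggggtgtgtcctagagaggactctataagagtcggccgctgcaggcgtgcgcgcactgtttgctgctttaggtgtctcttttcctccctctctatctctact
GGCGCC occurred once in Id2 and once in Ptch1, and in none of the windows of Bmp4, Gli2, Hhip and Id3, against 11.9% of all 32851 promoters of this length. GTCTAGAC and GACCACCCA were in none of these 6 windows, against 0.213% and 0.253% of all promoters. A match describes the letters of these windows only.

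Among 21 further Hedgehog genes (ligands and their release, receptors, transducers), 19 were tested at 4 days and 0 passed by limma, against the same 3418 genes at an unadjusted p under 0.05. Smo, which carries the signal into the cell, ran from 3911 to 4867, Gli3, mainly a repressor, from 105 to 394, and Sufu, which restrains the Gli factors, from 1247 to 2116, each with overlapping groups. Of 44 further BMP genes 36 were tested, and 1 of them, Msx2, was lower in mutants. Msx2, a homeobox gene that BMPs induce, measured 5366, 6986, 7556 and 7177 in the controls and 5000.5, 4901, 3791, 4405 and 4948 in the mutants. All 5 mutants lay below all 4 controls (log2 fold change -0.55, SE 0.13, limma adjusted p = 0.0486). The call of Msx2 ended without any 1 library other than CT063 (limma adjusted p = 0.0535 to 0.147). Over all alternative settings its limma adjusted p ran from 0.0181 to 0.787 and was under 0.05 in 7 of 19. With sex as a covariate the log2 fold change of Msx2 was -0.23 (limma adjusted p = 0.787).

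The BMP receptors Bmpr1a and Bmpr2 and the transducers Smad1, Smad5 and Smad4 had log2 fold changes between -0.31 and -0.09 at 4 days, and none passed. Smad5, a transducer that the receptors phosphorylate, measured 1394, 1679, 2083 and 1773 in the controls and 1286, 1434, 1331, 1588 and 1316 in the mutants. Controls reached higher, and the groups overlapped (log2 fold change -0.31, SE 0.13, limma adjusted p = 0.201).

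Stromal RNA varied among the 4-day libraries. The summed level of 12 fibroblast markers, of which Dcn was the most abundant, was 13599, 27238, 45832 and 90757 in the controls and 99322, 37483, 243988, 155664 and 79752 in the mutants. The 2 highest sums were in CT074 and CT076, which also had the highest values of Gli2. Of 11 fibroblast markers tested, 2 were higher in mutants and 0 lower, and Dpt stayed under 10 in all 9 libraries. Smooth muscle markers summed to 3714, 4578, 7949 and 7747 in the controls and 6052, 2440.1, 6397, 6081 and 5791 in the mutants (Smtn most abundant, 0 of 7 tested called by limma). Of these 7 markers 6 had positive log2 fold changes, with a median of 1.47, and of the 11 fibroblast markers 10, with a median of 2.04. Endothelial markers summed to 747, 1141, 1404 and 2746 in the controls and 2258, 966, 4285, 3829 and 1683 in the mutants (Esam most abundant, 0 of 6 called), with Cdh5 listed at 0 in 8 of 9 libraries. Immune markers summed to 2118, 1268, 1650.1 and 1222 in the controls and 905, 1314, 2737, 1331 and 2901 in the mutants (Lyz2 most abundant, 0 of 9 called). The part of stromal RNA in Gli2 was not tested, and in bulk RNA fewer cells of a type and less RNA per cell cannot be told apart. Y-linked genes summed above 1000 in 3 of 9 libraries, all of them controls, so that sex and genotype are partly confounded.

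Basal cell markers summed to 169798, 186463, 190685 and 204665 in the controls and 150650.1, 160292, 134610.2, 154326 and 158737 in the mutants (Krt5 most abundant, 1 of 8 higher and 1 lower in mutants). Superficial cell markers summed to 430875, 382502, 233352 and 285829 in the controls and 703398, 519799, 408029, 299645 and 409578 in the mutants (Upk1a most abundant, 1 of 9 higher), and epithelial markers to 232463, 238816, 192047 and 216606 in the controls and 405208, 343278, 259684, 196886 and 254288 in the mutants (Krt7 most abundant, 1 of 4 lower). Basal marker sums were lower in every mutant than in every control, but they follow the most abundant genes, and 4 of 8 basal markers had positive log2 fold changes (median 0.00046). Superficial sums overlapped, and 9 of 9 superficial markers had positive log2 fold changes (median 0.63).

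In BBN-induced tumors, Shh separated luminal from basal tumors with the largest log2 fold change of the 8 members tested. The basal tumors CT111, CT113 and CT115 had 3.42, 266 and 0 normalized counts of Shh, the luminal tumors CT126, CT132 and CT140 had 3922, 1826 and 1222 in the luminal tumors, and the luminal domains CT128 and CT143 of the same table had 1304 and 1210.5 in the luminal domains. Basal tumor CT113 lay between the other basal tumors and the luminal libraries, and no value overlapped. The log2 fold change of luminal against basal tumors was 7.61 (SE 1.73), and with a limma adjusted p of 0.0585 it did not pass the threshold. It passed without basal tumor CT113 (log2 fold change 9.94, limma adjusted p = 0.00514), with array weights (7.87, 0.0448), with a pseudocount of 5 (6.52, 0.0408) and with the 3 basal tumors set against all 5 luminal libraries (7.32, 0.0271). Over all alternative settings the adjusted p ran from 0.00514 to 0.180 and was under 0.05 in 4 of 18.

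The genes that respond to Hedgehog did not separate luminal from basal tumors as Shh did. Ptch1 measured 400.2, 562 and 189.6 in the basal tumors, 278, 50.6 and 643 in the luminal tumors and 197 and 326 in the luminal domains. Gli1 measured 2.57, 69.1 and 0 in the basal tumors and 0, 1.17 and 42.5 in the luminal tumors. Both genes overlapped between tumor types, and the highest Gli1 value was that of basal tumor CT113. Among the basal tumors, Shh, Ptch1, Gli1 and Hhip were all highest in CT113. Among the luminal tumors, Ptch1, Gli1 and Hhip were highest in CT140, which had the lowest Shh. Gli2 measured 0, 13.1 and 196 in the basal tumors, and at most 2.46 in the 5 luminal libraries. Hhip was at most 34.9 in the basal tumors and 88.2 in the luminal tumors, each in 1 library, and Gli2 and Hhip were below the limit for testing.

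Bmp2 was high in every luminal tumor and in 1 basal tumor. It measured 1320.1, 217 and 81.2 in the basal tumors, 1968, 1511 and 1255 in the luminal tumors and 1002 and 343 in the luminal domains. CT111 placed among the luminal tumors (log2 fold change 2.43, SE 0.94, limma adjusted p = 0.211). Bmp4 measured 5.97, 608 and 89.5 in the basal tumors, 3.15, 27.4 and 872 in the luminal tumors and 524 and 867 in the luminal domains. It was high in CT113, CT140 and both domains and low in the other tumors. Bmp7 ran from 39.1 to 3060.2 over the 8 libraries, with basal tumor CT111 lowest and luminal domain CT128 highest. Id1 ran from 4497 to 38207, both in luminal tumors, and Id2 from 3553 to 13287, with overlapping groups.

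**Figure D3:**
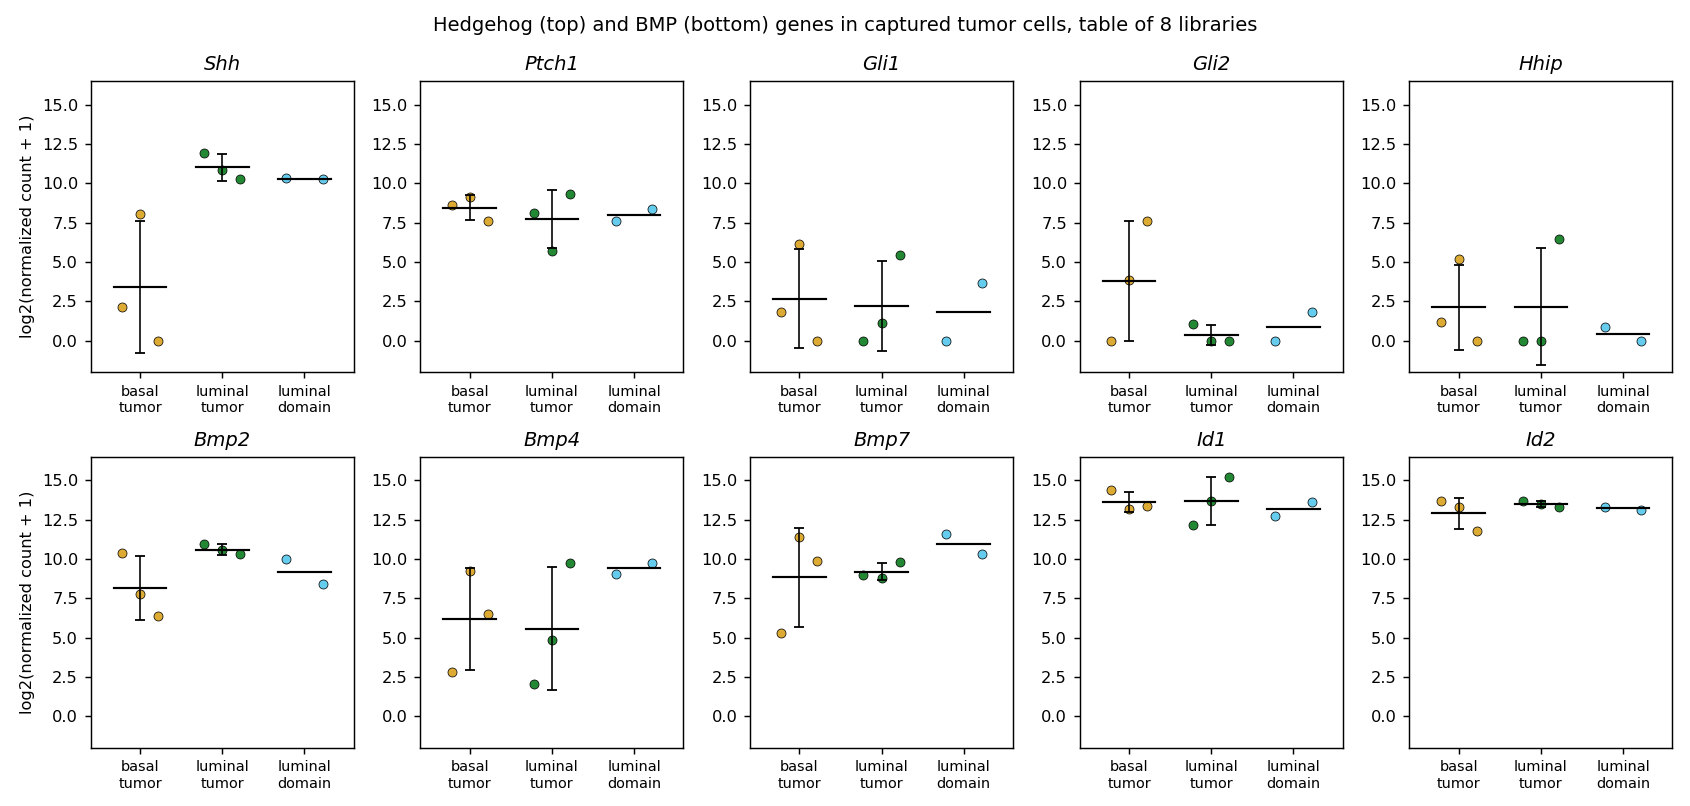
The 10 genes as log2(normalized count + 1) in 3 basal tumors, 3 luminal tumors and 2 luminal domains of 1 table, 1 point per library, with the mean (line) and, for the groups of 3, the SD (bar). Among the tested genes only Shh has no overlap between basal and luminal tumors.

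By limma, 0 of the 8 members tested passed between luminal and basal tumors, where 2.2% of all 15357 genes did. At an unadjusted p under 0.05 there were 2 members, Shh and Bmp2, and 2820 genes in all. The median log2 fold change of the 8 members was 0.21, and that of all genes tested -0.11. Groups did not overlap in 1 of the 8 members, Shh, and in 21.5% of all genes tested.

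The further Hedgehog genes were mostly lower in the luminal tumors, and 0 of 16 tested passed by limma (2820 genes at an unadjusted p under 0.05). Their median log2 fold change was -2.98, with 1 of 16 positive. Gli3 measured 367, 535 and 593 in the basal tumors, 27.4, 4.53 and 55.9 in the luminal tumors and 28.3 and 25.2 in the luminal domains. All basal tumors lay above all luminal libraries (log2 fold change -4.56, SE 1.17, limma adjusted p = 0.0841). It passed without luminal tumor CT140 (log2 fold change -5.29, limma adjusted p = 0.0443) and against all 5 luminal libraries (-4.39, 0.0441), and the adjusted p ran from 0.0441 to 0.222 over 18 alternative settings. Smo ran from 486 to 2563 and Sufu from 127 to 775, each with overlapping groups.

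Of the further BMP genes, 33 were tested between luminal and basal tumors, 1 was higher and 1 lower in luminal tumors, and their median log2 fold change was -1.05. Bambi, a pseudoreceptor that dampens BMP signaling, measured 72.2, 207 and 749.5 in the basal tumors, 7321, 1961 and 2958 in the luminal tumors and 1089 and 2551 in the luminal domains. Every luminal library lay above every basal tumor (log2 fold change 3.95, SE 0.85, limma adjusted p = 0.0494). Bmpr1b, a type I BMP receptor, measured 79.3, 74.2 and 186 in the basal tumors and 0, 0 and 1.89 in the luminal tumors, and 83.4 and 13.1 in the luminal domains, where CT128 reached the basal level. Bmpr1b was lower in luminal tumors (log2 fold change -6.19, SE 1.29, limma adjusted p = 0.0463). Both calls lay close to the threshold. That of Bambi ended without any 1 library other than CT115 (limma adjusted p = 0.0597 to 0.164), and that of Bmpr1b without any 1 library other than CT140 (limma adjusted p = 0.0624 to 0.158) and against all 5 luminal libraries (-4.35, 0.161). Over all alternative settings the limma adjusted p ran from 0.0360 to 0.164 for Bambi, under 0.05 in 6 of 18, and from 0.0276 to 0.161 for Bmpr1b, under 0.05 in 6 of 18.

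The secreted antagonists Grem1 and Fst were high in basal tumors. Grem1 measured 2534, 214 and 624 in the basal tumors, 6.95, 1.17 and 25.9 in the luminal tumors and 8.72 and 0.879 in the luminal domains. Fst, which binds activins and BMPs, measured 12216, 1452 and 7917 in the basal tumors, 53.7, 2.17 and 1851 in the luminal tumors and 8.09 and 4.82 in the luminal domains. Grem1 did not overlap between basal tumors and luminal libraries, while luminal tumor CT140 reached the basal range of Fst. Neither passed in this comparison (limma adjusted p = 0.0622 and 0.140, log2 fold changes -6.49 and -6.25). Without CT140 both passed, Grem1 at -7.39 (limma adjusted p = 0.0409) and Fst at -8.62 (limma adjusted p = 0.0217). For Fst this was the only setting that passed, of 18. Grem1 passed in 4 of 18, also against all 5 luminal libraries (-6.84, 0.0218), with array weights (-6.84, 0.0465) and with a pseudocount of 5 (-5.74, 0.0409), and over all alternative settings the adjusted p ran from 0.0218 to 0.202 for Grem1 and from 0.0217 to 0.352 for Fst. Msx2 measured 11.9, 2170.3 and 9.24 in the basal tumors and 7104, 3743 and 4785 in the luminal tumors. As with Shh, CT113 alone among basal tumors was well above the low values (log2 fold change 6.25, SE 1.69, limma adjusted p = 0.0961). Without CT113 it passed (8.77, limma adjusted p = 0.000314), as it did against all 5 luminal libraries (6.37, 0.0413), and over all alternative settings the adjusted p ran from 0.000314 to 0.263.

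The receptors Bmpr1a and Bmpr2, the transducers Smad1, Smad4 and Smad5 and the target Id3 had log2 fold changes between -1.99 (Smad5) and -0.14 (Bmpr2), and none passed the limma test.

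Sums of fibroblast, smooth muscle and immune markers were lower in every luminal library than in every basal tumor, while endothelial sums overlapped. Fibroblast markers (Col3a1 most abundant) summed to 80597, 49668 and 87545 in the basal tumors, 953, 245 and 18614 in the luminal tumors and 32755 and 6112 in the luminal domains, and 6 of 12 were lower in luminal tumors. Smooth muscle markers (Acta2) summed to 51951, 7495 and 49909 in the basal tumors, 624, 383 and 2445 in the luminal tumors and 2930.0 and 2342 in the luminal domains, and 4 of 8 were lower. Both sums were lowest in CT126 and CT132. CT140, the luminal tumor with the highest fibroblast sum, also had the highest Grem1, Fst, Gli1 and Ptch1 of its group. Endothelial markers (Egfl7) summed to 3145, 3858 and 3584 in the basal tumors, 842, 662 and 3913 in the luminal tumors and 6171 and 3718 in the luminal domains, with 0 of 8 called by limma, and immune markers (Lyz2) to 136223, 34265 and 28608 in the basal tumors, 11668, 846 and 5221 in the luminal tumors and 8281 and 9696 in the luminal domains, with 0 of 9 called. Their part in the values of Grem1, Fst, Gli3, Bmpr1b, Ptch1, Gli1 and Gli2 was not tested.

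Epithelial identity moved as well. Superficial markers (Psca most abundant) summed to 29469, 39917 and 95157 in the basal tumors, 793354, 1942033 and 442634 in the luminal tumors and 864324 and 378088 in the luminal domains, and 6 of 9 were higher in luminal tumors. Basal markers (Krt14) summed to 314037, 354081 and 684385 in the basal tumors, 82554, 16510.2 and 206197 in the luminal tumors and 259342 and 161750.5 in the luminal domains, and 3 of 8 were lower. Epithelial markers (Krt7) summed to 29451, 128235 and 49823 in the basal tumors, 154812, 265386 and 154011 in the luminal tumors and 267475 and 244455 in the luminal domains, with 0 of 4 called by limma. Basal tumors CT111 and CT115, with Shh at or near 0, had Krt5 values of 60435 and 198996.

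The luminal domains were also set against the basal tumors in a table of their own, which shares the 3 basal tumors and 2 domains with the comparison above, so that the results are not independent. Shh measured 3.6, 275 and 0 in the basal tumors and 1395, 1312 and 2901 in the luminal domains CT128, CT143 and CT148. All domains lay above all basal tumors (log2 fold change 7.33, SE 1.89, limma adjusted p = 0.0900). The difference passed without basal tumor CT113 (9.67, limma adjusted p = 0.0153), and over all alternative settings the adjusted p ran from 0.0153 to 0.240. Bmp4 measured 6.33, 632 and 93.8 in the basal tumors and 564, 944 and 382 in the domains, where CT113 reached the domains' range (log2 fold change 2.95, SE 1.50, limma adjusted p = 0.314). Ptch1 ran from 197 to 578, Bmp2 from 84.7 to 1392, Bmp7 from 42.5 to 3375, Id1 from 7366 to 22042 and Id2 from 3686 to 13569, all with overlapping groups. Gli1, Gli2 and Hhip were below the limit for testing.

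By limma, 0 of the 7 members tested passed between luminal domains and basal tumors, where 2.53% of all 14921 genes did. At an unadjusted p under 0.05 there was 1 member, Shh, and 3072 genes in all. The median log2 fold change of the 7 members was 1.07, and that of all genes tested 0.0097. Groups did not overlap in 1 of the 7 members, Shh, and in 26.8% of all genes tested.

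Among the further genes 0 of 16 Hedgehog genes passed by limma (3072 genes at an unadjusted p under 0.05), and of 32 BMP genes 0 were higher and 2 lower in the domains. Fst measured 12636, 1473 and 8097 in the basal tumors and 8.49, 5.12 and 109.7 in the domains. Grem1 measured 2673, 221 and 650.5 in the basal tumors and 9.34, 0.954 and 8.54 in the domains. In both antagonists the lowest basal tumor was far above the highest domain. The log2 fold changes were -8.16 for Fst (SE 1.27, limma adjusted p = 0.0275) and -6.98 for Grem1 (SE 1.30, limma adjusted p = 0.0406). Without any 1 library other than CT113 both calls ended (limma adjusted p = 0.0516 to 0.121 for Fst and 0.0886 to 0.142 for Grem1), and over all alternative settings the limma adjusted p ran from 0.0207 to 0.121 and from 0.0333 to 0.142. Bambi and Msx2 were higher in each domain than in each basal tumor and did not pass (log2 fold changes 3.12 and 6.71, limma adjusted p = 0.0990 and 0.0999), and without CT113 Msx2 passed at 9.23 (limma adjusted p = 0.00169, with a range over all settings of 0.00169 to 0.266). Smo, Sufu and Gli3 had log2 fold changes of -0.40, -0.02 and -3.09, and Bmpr1a, Bmpr2, Smad1, Smad4, Smad5 and Id3 lay between -1.47 and 0.15. Bmpr1b had -2.34, and none of these 10 genes passed.

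Fibroblast markers summed to 84575, 50848 and 91709 in the basal tumors and 34978, 6596 and 5975 in the domains (2 of 11 lower), smooth muscle markers to 58037, 7892 and 52796 in the basal tumors and 3192, 2607 and 2104 in the luminal domains (3 of 8 lower), and immune markers to 143556, 35881 and 30293 in the basal tumors and 8995, 10822 and 17233 in the luminal domains (0 of 9 called by limma). Endothelial markers summed to 3535, 4252 and 4039.7 in the basal tumors and 6998, 4259 and 4307 in the luminal domains (0 of 8 called). Superficial markers summed to 30998, 41166 and 98786 in the basal tumors and 921949.8, 408771 and 405969 in the luminal domains (2 of 9 higher), basal markers to 338554, 370937 and 729876 in the basal tumors and 282252, 178362 and 215286 in the luminal domains (1 of 8 lower), and epithelial markers to 31019.7, 132419.7 and 51884 in the basal tumors and 285826, 264630.4 and 246988 in the luminal domains (0 of 4 called). The part of these cells in Fst and Grem1 was not tested.

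Within tumors of mixed histology, Shh was lower in each basal-like domain than in each luminal domain. The 3 luminal domains, shared with the comparison above, had 1412, 1345 and 2971 in this table and the basal-like domains CT129, CT144 and CT149 had 1158, 751 and 1187 in the basal-like domains. The log2 fold change was -0.82 (SE 0.40, limma adjusted p = 0.935), far smaller than the difference between domains and basal tumors. Id2 was likewise lower in each basal-like domain, with 10959.7, 9813 and 11195 in the luminal and 9785, 5978 and 8405 in the basal-like domains (log2 fold change -0.43, SE 0.24, limma adjusted p = 0.935). Ptch1 measured 191, 325 and 255 in the luminal and 302, 414 and 509 in the basal-like domains, with overlap. Gli1 measured 0, 8.49 and 0 in the luminal domains and 36.7, 6.68 and 19 in the basal-like domains, and Gli2 0, 2.93 and 0 in the luminal domains and 71.8, 83.8 and 1.88 in the basal-like domains, both below the limit for testing. Hhip reached 88.9 in CT144 and was at or near 0 in the other 5 domains. The ligands Bmp2, Bmp4 and Bmp7 and the target Id1 overlapped, with log2 fold changes between -0.42 and 0.51.

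By limma, 0 of the 7 members tested passed between basal-like and luminal domains, where 0% of all 14874 genes did, with 757 genes and 0 members at an unadjusted p under 0.05. Groups did not overlap in 2 of the 7 members, Shh and Id2, and in 10.8% of all genes tested. The labels give the domains no lesion number. The library numbers of the domains lie next to each other in pairs, which no label ties to tumors, and no paired fit was run.

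Of the 16 Hedgehog and 31 BMP further genes tested, only Smo, Bmpr1a, Grem1, Fst, Bmp5 and Sostdc1 did not overlap between the domains. Groups did not overlap in 10.8% of all 14874 genes tested. The ligand Bmp5 and the antagonist Sostdc1 are named after their values were seen, and none of the genes named here passed the limma test. Smo measured 1298, 1636 and 1579.5 in the luminal and 2423, 2271 and 3309 in the basal-like domains (log2 fold change 0.81, SE 0.27, limma adjusted p = 0.933). Grem1 measured 9.48, 0.98 and 8.77 in the luminal domains and 307, 199.5 and 69.5 in the basal-like domains (log2 fold change 4.80, limma adjusted p = 0.712), and Fst 8.49, 5.19 and 111 in the luminal domains and 365, 141 and 1183 in the basal-like domains (log2 fold change 4.40, limma adjusted p = 0.880). Grem1 and Fst were higher in each basal-like domain than in each luminal domain. The values of Bmpr1a were 3173, 2920.1 and 3154 in the luminal domains and 2138, 1934 and 2879 in the basal-like domains, lower in each of the latter (log2 fold change -0.43, SE 0.25, limma adjusted p = 0.935). Gli3 and Sufu overlapped between the domains (log2 fold changes 1.25 and 0.04), and Bmpr1a, Bmpr2, Smad1, Smad4, Smad5 and Id3 had log2 fold changes between -0.43 and 0.71. Bambi, Msx2 and Bmpr1b had -1.51, -0.20 and 0.57. Of the further genes, 0 of 16 Hedgehog and 0 of 31 BMP genes passed by limma, with 757 of all genes at an unadjusted p under 0.05.

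Fibroblast markers summed to 36056, 6876 and 6215 in the luminal and 109938, 18176 and 15818 in the basal-like domains (Col3a1 most abundant). Smooth muscle markers summed to 3434, 2858 and 2224 in the luminal domains and 8379, 4254 and 3140.2 in the basal-like domains, endothelial markers to 7046, 4319 and 4398 in the luminal domains and 9998, 4432 and 2970.2 in the basal-like domains, and immune markers to 9189.6, 11259.7 and 17785 in the luminal domains and 21764, 5441 and 16449.6 in the basal-like domains, with Cd79a listed at 0 in all 6. Basal markers summed to 291563, 186717 and 225171 in the luminal domains and 264533, 470773 and 416858 in the basal-like domains, superficial markers to 924901, 416109 and 411046 in the luminal domains and 279943, 217561 and 171428 in the basal-like domains, and epithelial markers to 289885, 271652 and 253415 in the luminal domains and 170471, 234678 and 196902 in the basal-like domains. In none of these 7 marker lists did a gene pass by limma (757 of all genes at an unadjusted p under 0.05), and their part in Grem1 and Fst was not tested.

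**Figure D4:**
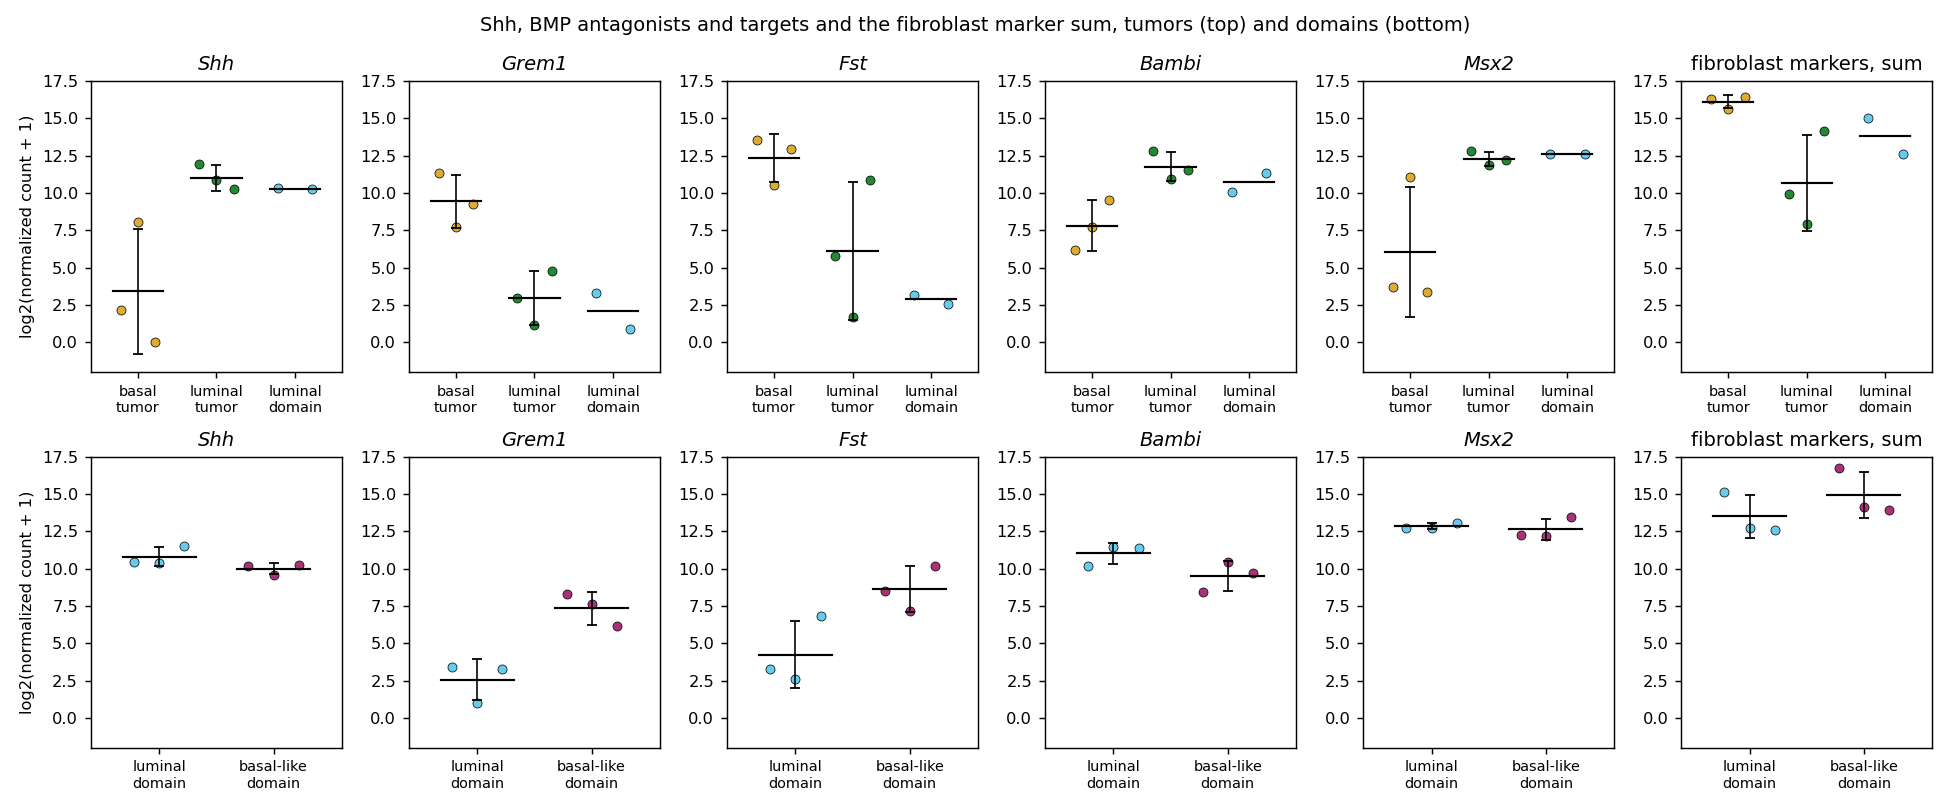
Shh, Grem1, Fst, Bambi, Msx2 and the summed fibroblast markers as log2(normalized count + 1), in tumors and luminal domains of 1 table (top) and in luminal and basal-like domains of another (bottom), 1 point per library with mean (line) and, for groups of 3, SD (bar). Grem1 is higher in every basal tumor than in every luminal library and higher in every basal-like domain than in every luminal domain.

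**Figure D5:**
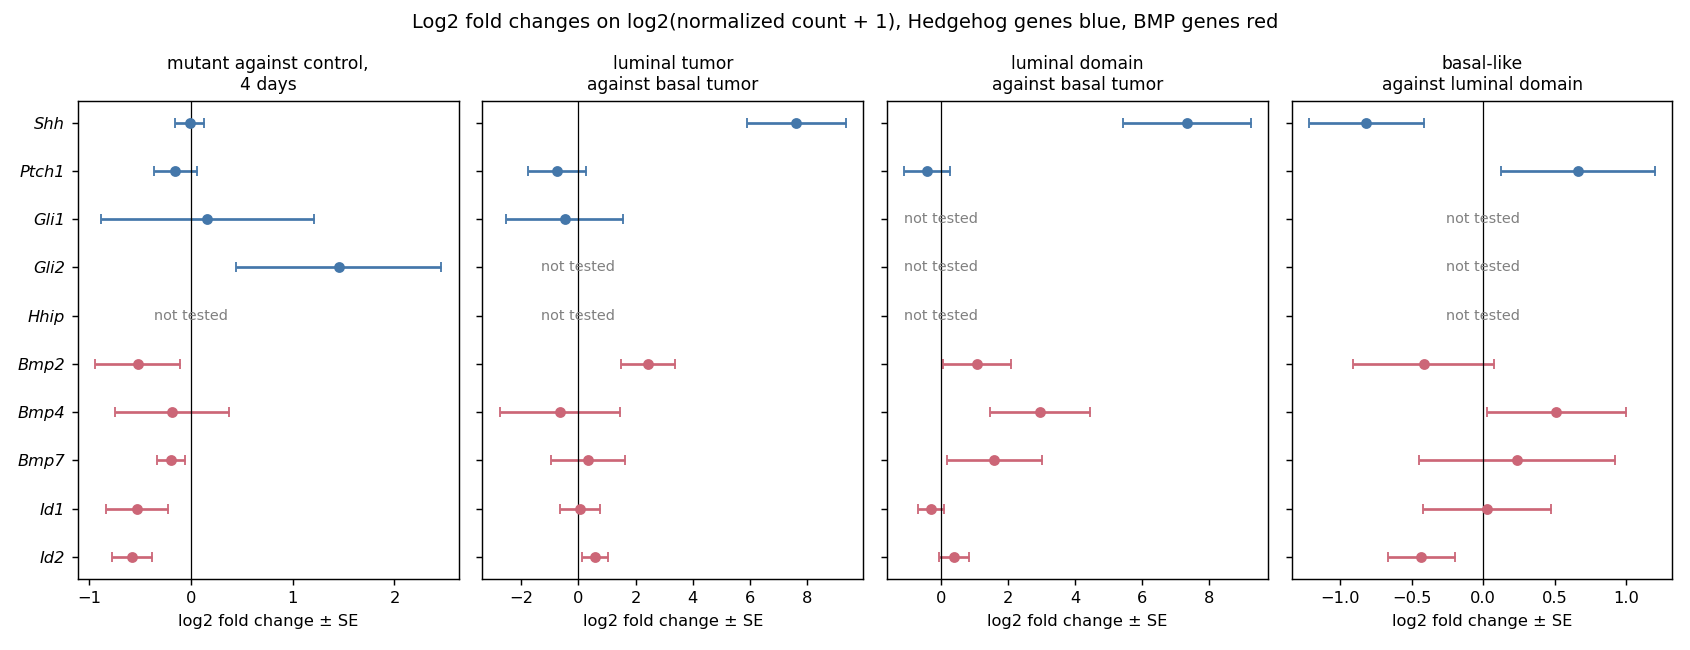
Log2 fold changes with their standard errors for the 10 genes in the 4 comparisons, each panel with its own axis. Shh at 7.61 and 7.33 in the comparisons with basal tumors is the farthest from 0, and none passed the limma test.

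The genes whose pattern was most like that of Shh differed between the data sets. Across the 9 libraries at 4 days, the highest Pearson correlations of log2 values with Shh among genes tested were those of Reep5 (0.952), Armcx6 (0.935), Txndc15 (0.932) and Psap (0.932) and, between Armcx6 and Txndc15, Gm16238. Across the 8 tumor and domain libraries of 1 table they were those of Mmp15 (0.992), Gsdmc2 (0.990), Gm5177 (0.986), Fam174a (0.986) and Plekha8 (0.983). Mmp15, a membrane-bound matrix metalloproteinase, measured 274, 1237 and 133 in the basal tumors CT111, CT113 and CT115 and 3978, 3947 and 1985 in the luminal tumors CT126, CT132 and CT140. These are the highest of the correlations with all 16413 and 15357 genes tested, over few libraries, and the tumor values follow the tumor types. Gm5177 is named like a predicted gene, and reads of similar genes may have been counted for it.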

How the data were processed

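Signal values were taken as deposited: normalized counts that the authors made with bcl2fastq 2.20, kallisto 0.44.0 and DESeq2 1.18, with factors that differ between genes. Each table was used by itself, on log2(normalized count + 1), for genes with a value of 10 or more in enough libraries to fill the smaller group. R 4.3.3 with limma 3.58.1 fitted groups as factors (eBayes with trend), and p-values were adjusted over all genes tested by the Benjamini-Hochberg method at 0.05. The luminal tumors were fitted together with the luminal domains of their table as 3 groups. The method was tested on simulated data. Tables and figures used Python 3.11.15, pandas 2.3.3 and matplotlib 3.10.9. Genes named were all 10 members, the wider-list genes called in a comparison (at most 8), which were followed in all tumor comparisons, 9 set pathway genes, the most abundant and absent markers, and the 5 genes most like Shh. Members and lists were chosen with earlier results of these data known. Alternatives were the pseudocount (0.5, 5), the filter (none, 50), eBayes without trend, array weights, quantile and upper-quartile scaling, sex from 4 Y-linked genes, the smaller 4-day table, other groupings of the luminal libraries and leaving out each library. The 8 columns of the table on BBN and untreated bladders were not used, because no label ties them to conditions, nor were the authors' own lists of comparisons.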

Additional observations from a re-analysis of the deposited data

Results flagged for a closer look

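In 5 values of the 4-day libraries, 1 library lay far from the others of its group. Hhip was 2.19 in control CT063 and 0 in the other controls, and 3.88 in mutant CT076, with the next mutant at 0.669, all of them below the limit for testing. Smo was 4867 in control CT067, with the next control at 4149.6. Smad7 was 858.3 in control CT063, with the next control at 1803. The summed smooth muscle markers were 2440 in mutant CT071, with the next mutant at 5791. These values come from 62 groups looked at, and chance alone gives about 1 in 20 groups such a value.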

How the results depend on the processing

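No paired analysis was possible because the columns carry library numbers and not the replicate numbers of the labels. The limits are these. Libraries were few, captured regions are not tied to animals, the reads obtained from each library were not analysed here, and values below 10 cannot be ranked. Leaving out luminal domain CT128 or CT143 left 1 domain in the 3-group fit, which is assumed to vary like the other groups. A filter of 50 normalized counts gave no value for genes below it.

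The number of genes called at 4 days, 467 of 16413, became 1054 with array weights, 269 with eBayes without trend, 26 with sex as a covariate and 147 in the smaller table of 3 against 3 libraries. It ran from 129 without CT066 to 596 without CT071, and was 154 without CT065, 169 without CT067, 311 without CT070 and 228 without CT074. Between luminal and basal tumors, 338 genes became 513 against all 5 luminal libraries, 142 with eBayes without trend, 52 with no filter and 142 with the 6 libraries of the 2 groups alone. The count ran from 3 without CT126 (and 3 without CT132) to 813 without CT140, and was 14 without CT111, 211 without CT113, 100 without CT115, 117 without CT128 and 116 without CT143. Between luminal domains and basal tumors, 377 genes became 107 with eBayes without trend and 144 with no filter. The count ran from 0 without CT128 (and 0 without CT143) by limma to 467 without CT113, and was 22 without CT111, 160 without CT115 and 3 without CT148, where 3072 genes had an unadjusted p under 0.05 with all libraries. Between the domains, the count of 0 by limma (757 at an unadjusted p under 0.05) became 20 with eBayes without trend.

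Members called stayed at 0 by limma at 4 days (3418 genes at an unadjusted p under 0.05) and between the domains (757) in every setting run. Between luminal and basal tumors there was 1, Shh, against all 5 luminal libraries, with array weights and with a pseudocount of 5, and leaving out 1 library gave 0 to 1 (1 without CT113). Between luminal domains and basal tumors leaving out 1 library likewise gave 0 to 1 (1 without CT113).

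Of genes called, 62.1% were higher in mutants at 4 days as deposited and 48.5% after quantile normalization, and 67.4% were higher in luminal domains than in basal tumors as deposited and 57.2% after upper-quartile scaling. The median log2 fold change of all genes tested between luminal and basal tumors was -0.11 as deposited, 0.02 after quantile normalization and -0.19 after upper-quartile scaling, and between luminal domains and basal tumors 0.0097 as deposited and -0.14 after upper-quartile scaling.

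At 4 days, log2 fold changes turned to the other sign in Bmp4 (1.05), Bmpr1a (0.068), Id3 (0.61), Shh (0.0056), Smad1 (0.051) and Smad4 (0.061) with sex as a covariate, Gli1 (-0.054) and Smo (-0.025) with quantile normalization, Gli1 (-1.12), Gli2 (-0.014), Ptch1 (0.090), Shh (0.087) and Smo (-0.032) with the smaller table, Shh (0.057) with array weights, Smo (-0.0094) with upper-quartile scaling. Leaving out 1 library at a time, values whose sign changed ran over -0.60 to 0.29 for Bmp4, -0.41 to 0.82 for Gli1, -0.42 to 0.052 for Gli3, -0.27 to 0.037 for Ptch1, -0.099 to 0.086 for Shh, -0.014 to 0.074 for Smo. Between luminal and basal tumors, log2 fold changes turned to the other sign in Bmp4 (0.91) and Id1 (-0.14) with all 5 luminal libraries, Bmp4 (0.48), Gli1 (0.53) and Id1 (-0.11) with quantile normalization, Id1 (-0.40) with array weights, Id1 (-0.017) with upper-quartile scaling. Leaving out 1 library at a time, values whose sign changed ran over -2.74 to 1.11 for Bmp4, -1.42 to 1.61 for Bmp7, -0.52 to 0.0068 for Bmpr1a, -2.10 to 1.27 for Gli1, -0.71 to 0.84 for Id1, -1.55 to 0.27 for Ptch1, -0.98 to 0.18 for Smo, -1.11 to 0.19 for Sufu. Between luminal domains and basal tumors, log2 fold changes turned to the other sign in Bmpr1a (-0.00030) with quantile normalization. Leaving out 1 library at a time, values whose sign changed ran over -0.16 to 2.85 for Bmp7, -0.53 to 0.077 for Id1, -0.17 to 0.77 for Id2, -1.01 to 0.52 for Id3, -0.81 to 0.11 for Smad1, -0.84 to 0.47 for Sufu. Between the domains, log2 fold changes turned to the other sign in Sufu (-0.021) with quantile normalization. Leaving out 1 library at a time, values whose sign changed ran over -0.31 to 0.84 for Bmp7, -1.01 to 2.29 for Bmpr1b, -0.39 to 0.20 for Bmpr2, -0.26 to 0.53 for Id1, -0.61 to 0.017 for Msx2, -0.024 to 0.45 for Smad1, -0.21 to 0.72 for Smad4, -0.32 to 0.35 for Sufu. In none of these was the gene called as deposited, and the cause was not tested.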
